A study of Mus musculus with 5 samples.

Results

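The E proteins Tcf4, Tcf12 and Tcf3 and the Id factors Id1, Id2, Id3 and Id4 were examined in ribosome-bound RNA of Drd2 neurons of the central amygdala (CeA). All 7 genes were found by name among the 15093 genes of the deposited table, and all 7 were among the 13560 genes tested, whose mean over the libraries was 1 or more. They were chosen by name with the fear conditioning and home cage values of this same contrast already known, so their levels and fold changes are given as a description. They stayed in the fit over all genes, but no p-value is given for any of them. E proteins are basic helix-loop-helix (bHLH) transcription factors that bind E-box DNA as dimers, either with each other or with tissue-restricted bHLH partners such as proneural factors. Id factors have a helix-loop-helix region but lack the basic region that contacts DNA, so a dimer of an Id factor with an E protein does not bind the E-box, and Id genes are well known targets of bone morphogenetic protein (BMP) signalling through SMADs. In the brain, E proteins and Id factors regulate neurogenesis and glial differentiation. Loss of 1 copy of human TCF4 causes Pitt-Hopkins syndrome, and variation at the gene has been linked to schizophrenia. The E protein Tcf4 is not Tcf7l2, an HMG-box factor of the Wnt pathway that has also been called TCF4.

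The mice carried a Drd2-Cre driver and an EGFP-tagged ribosomal protein L10a that Cre switches on at the Rosa26 locus, together named Drd2-TRAP in the labels, and were adults of 8 to 12 weeks. Both groups shared these alleles. There were 3 libraries of the group labelled Fear conditioning (replicates 2, 3 and 4) and 2 of the group labelled Home Cage (replicates 6 and 7), each from bilateral 1 mm punches pooled from 3 animals and collected 2 h after the session. The sources differ on the session and on the controls: the labels name extinction and home cage animals, whereas the study describes conditioning and, in its results, controls that heard the tone. The sample is defined by where the Drd2 driver was ever active within a punch, and a pull-down can carry RNA of other cells.

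The deposited values are CPM, reads on a gene scaled to an effective library size rather than to the total. The reads on genes recovered from them numbered 21070588, 25022225 and 19988438 in fear conditioning replicates 2, 3 and 4, and 27937520 and 19605318 in home cage replicates 6 and 7. A value of 3 reads, used as a floor, corresponded to 0.142, 0.125, 0.149, 0.1 and 0.158 in the same order, which covers counting error only. The home cage libraries stood apart: 976 genes in replicate 6 and 2681 in replicate 7 were listed at 0, against 349, 263 and 159 in the fear conditioning libraries. The median absolute log2 difference between the 2 home cage libraries was 1.08 over the genes tested, whereas the median log2 range over the 3 fear conditioning libraries was 0.443. The fold change of each member is therefore also given against each home cage library alone. Markers of Drd2 projection neurons were present in all libraries, with Drd2 itself at 326, 375 and 555 after fear conditioning and at 128 and 262 in the home cage. In pooled tissue such as this, fewer cells of a type and less RNA per cell cannot be told apart.

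Tcf4 and Tcf12 were both about 2 to 3 times lower in the fear conditioning libraries than in the home cage libraries, and Tcf3 was not separated. Of the Id factors, Id3 was lower without overlap, and Id1, Id2 and Id4 overlapped between the groups. Tcf4 (ENSMUSG00000053477, deposited length 12754 bases) had values of 72.6, 73.2 and 65.5 in the fear conditioning libraries and 233 and 227 in the home cage libraries. Those values rest on 1532, 1758, 1320, 6989 and 4309 reads, so counting error is small beside the gap between the groups. The home cage values lie close together and far above all 3 fear conditioning values, with the lowest home cage value 3.1 times the highest fear conditioning value. Within a group the highest and lowest values differed by 1.12 times after fear conditioning and by 1.03 times in the home cage. The means were 70.5 ± 4.27 (SD, n = 3) and 230.3 ± 4.36 (SD, n = 2). Tcf4 was therefore 3.27 times higher in the home cage, a log2 fold change of -1.70 with a standard error of 0.21 on the log2(value + 1) scale. Standard errors here come from the fit over all genes, which draws each gene's variance toward a trend over all genes. They are not the spread of a gene's own libraries, whose pooled SD on this scale was 0.073 for Tcf4 and 0.087 for Tcf12. Against home cage replicate 6 alone it was -1.72, and against replicate 7 alone -1.68. By value, Tcf4 stood above 79.4%, 78.3% and 77.1% of the genes in the table in the fear conditioning libraries and above 94.9% and 93.6% in the home cage libraries.

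The home cage pair lay close together for Tcf4 and Tcf12, which describes the values they were chosen with. The 2 values of Tcf4 differed by 0.038 on the log2 scale, and 3.05% of the genes tested had a home cage pair difference that small or smaller. For Tcf12 the difference was 0.068, and 4.75% of the genes tested had one that small or smaller. Both shares are over all genes tested, whatever their level, and are no test of either gene. Only 1 further member, Id4, had a home cage pair difference (0.34) under the median of 1.08.

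Tcf12 (ENSMUSG00000032228), which encodes the E protein HEB, had values of 23.0, 20.2 and 22.8 after fear conditioning and 51.8 and 49.4 in the home cage. As for Tcf4, the groups did not overlap, and the lowest home cage value was 2.15 times the highest fear conditioning value. The means were 22.0 ± 1.58 (SD, n = 3) and 50.6 ± 1.71 (SD, n = 2), a ratio of 2.3 and a log2 fold change of -1.17 with a standard error of 0.31. Its fold change was -1.20 against replicate 6 alone and -1.14 against replicate 7 alone. Tcf3 (ENSMUSG00000020167), which encodes E12 and E47, had values of 13.1, 20.7 and 15.5 after fear conditioning and 9.88 and 27.2 in the home cage. The home cage libraries held both the lowest and the highest Tcf3 value, and the log2 fold change of -0.03 (SE 0.56) turned from 0.66 against replicate 6 to -0.72 against replicate 7.

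**Figure D1:**
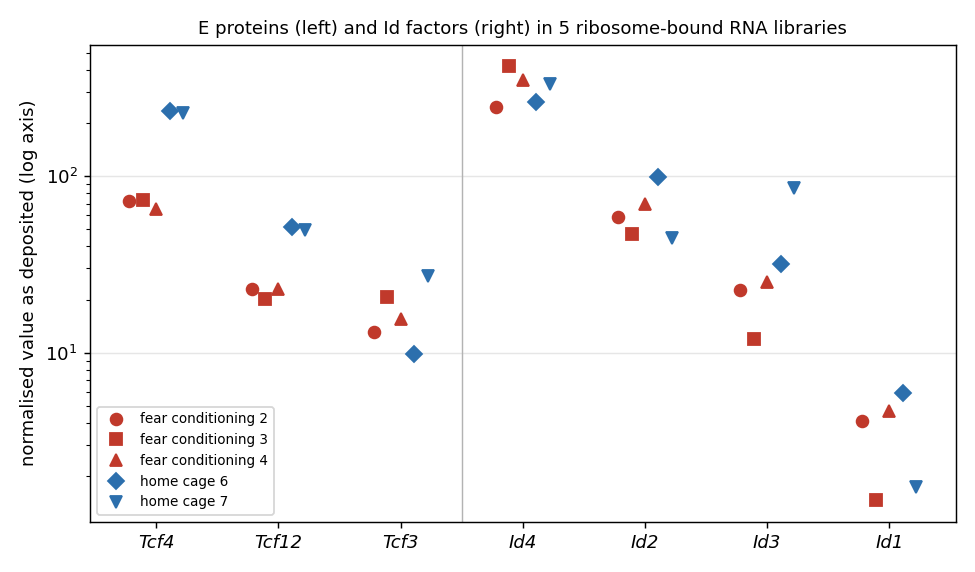
Deposited normalised value (scaled to an effective library size, log axis) of each E protein gene (left) and each Id gene (right). Each point is 1 library, red for fear conditioning and blue for home cage; Tcf4 (65.5 to 73.2 against 227 and 233) and Tcf12 (20.2 to 23.0 against 49.4 and 51.8) separate with little spread inside each group.

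Sequence immediately upstream of transcription starts was taken from RefSeq (GRCm38.p6) to show whether the E-box letters that E proteins are known to bind occur at the members' own genes. The table held 7 windows of 250 bases for 5 members. The E-box letters CANNTG, which read the same on both strands, were searched together with the CCAAT box. On the other strand that box was read as ATTGG. Matches are in capitals, and none overlapped another. For Tcf12, 3 starts were listed, of which the most upstream is shown because its window holds CAGCTG, E-box letters that many E protein dimers bind. Tcf12 lies on the minus strand, window chr9:72111820-72112069, with the match beginning 240 bases before the start.
Tcf12: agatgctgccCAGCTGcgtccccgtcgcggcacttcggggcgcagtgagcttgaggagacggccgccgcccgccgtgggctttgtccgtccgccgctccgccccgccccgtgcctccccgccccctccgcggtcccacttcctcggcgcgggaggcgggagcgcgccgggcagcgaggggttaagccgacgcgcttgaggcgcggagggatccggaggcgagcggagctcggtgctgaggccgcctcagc
CANNTG occurred in 66.2% of all 32851 windows of this length in the table and CAGCTG in 13%. A match is a description of letters and not a binding site, and these libraries hold no measurement of binding. The other windows of Tcf12 held CAAGTG at 149 bases before the start and no E-box letters, and that of Tcf3 held CACTTG at 54.

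Among the Id factors, which act against E proteins, Id4 was the most abundant. Id4 (ENSMUSG00000021379) had values of 246, 419.9 and 352 after fear conditioning and 263 and 332 in the home cage. Both home cage values lie inside the fear conditioning range, and the means of 339 ± 87.4 (SD, n = 3) and 298 ± 48.8 (SD, n = 2) differed by less than that spread. The log2 fold change was 0.16 with a standard error of 0.29, and was 0.33 against replicate 6 alone and 0.00 against replicate 7 alone. Id2 (ENSMUSG00000020644) had values of 58.9, 47.1 and 69.4 after fear conditioning, and the home cage values of 98.9 and 44.8 lay above and below them. Its log2 fold change was -0.20 (SE 0.40), and was -0.77 against replicate 6 alone and 0.36 against replicate 7 alone.

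Id3 (ENSMUSG00000007872) had values of 22.6, 12 and 25.2 after fear conditioning and 31.8 and 86.3 in the home cage. The groups did not overlap, but the 2 home cage values differed by 1.4 on the log2 scale and the lower of them was 1.26 times the highest fear conditioning value. The means were 19.9 ± 6.97 (SD, n = 3) and 59.1 ± 38.5 (SD, n = 2), a ratio of 2.96. The log2 fold change was -1.42 with a standard error of 0.56, and it ranged from -0.71 against replicate 6 to -2.12 against replicate 7. Id1 (ENSMUSG00000042745) was the scarcest member, at 4.08, 1.46 and 4.67 after fear conditioning and 5.88 and 1.74 in the home cage, from 86, 35, 94, 176 and 33 reads. Its 2 groups overlapped, and its log2 fold change of -0.07 (SE 0.71) turned from -0.73 against replicate 6 alone to 0.59 against replicate 7 alone.

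The upstream windows of Id2, Id3 and Id4 are shown to set the letters of the 3 abundant Id genes side by side. That of Id2 is chr12:25096093-25096342 (minus strand), that of Id3 chr4:136143572-136143821 (plus strand) and that of Id4 chr13:48260866-48261115 (plus strand).
Id2: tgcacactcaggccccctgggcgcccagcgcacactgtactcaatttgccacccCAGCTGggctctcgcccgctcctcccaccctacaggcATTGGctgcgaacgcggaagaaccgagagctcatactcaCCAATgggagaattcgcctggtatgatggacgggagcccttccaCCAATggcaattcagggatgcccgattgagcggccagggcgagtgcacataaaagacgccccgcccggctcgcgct
Id3: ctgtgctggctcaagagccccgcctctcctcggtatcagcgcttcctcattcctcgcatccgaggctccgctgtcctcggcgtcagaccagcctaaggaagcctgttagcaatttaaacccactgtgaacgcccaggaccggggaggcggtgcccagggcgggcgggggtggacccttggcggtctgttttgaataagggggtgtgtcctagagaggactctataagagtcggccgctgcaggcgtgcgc
Id4: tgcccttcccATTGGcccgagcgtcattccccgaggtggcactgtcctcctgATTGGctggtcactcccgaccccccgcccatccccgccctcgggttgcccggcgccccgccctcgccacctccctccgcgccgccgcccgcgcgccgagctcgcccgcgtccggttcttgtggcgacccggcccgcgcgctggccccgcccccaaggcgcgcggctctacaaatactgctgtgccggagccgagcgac
Id2 held 1 E-box match, CAGCTG, 196 bases before the start, and 3 CCAAT box matches. In the Id4 window there were 2 CCAAT box matches and no E-box letters, and in the Id3 window neither. CCAAT or ATTGG occurred in 33.8% of all windows. The windows were rich in G and C, at 62.8% for Id2 and Id3 and 75.6% for Id4 against a median of 52.4% over all windows.

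Of the 7 members, 3 were lower in every fear conditioning library than in every home cage library (Tcf4, Tcf12 and Id3) and 0 were higher in every one. Over all genes tested, 16.1% were lower without overlap, 20.2% were higher without overlap and 36.4% were either. Since the members were chosen with this contrast known, nothing is read from their count. Without home cage replicate 7 the count was 5 (Id1 and Id2 joined), where 40.7% of the genes tested were lower without overlap, and without replicate 6 it was 4 (Tcf3 joined), where 37.3% were. Over all genes tested, limma called 0 of 13560 (0%) with an adjusted p under 0.05 together with a log2 fold change beyond 0.5 in either direction, with 2280 genes at an unadjusted p under 0.05 and a smallest adjusted p of 0.197. With DESeq2 on the recovered reads, 1296 of 14489 genes (8.94%) passed the same cutoffs, whereas the edgeR quasi-likelihood test and limma voom on the same reads passed 0.

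The level per length, the value divided by the deposited gene length in kb, is used here to compare genes with each other. It rests on 1 deposited length per gene, which may not be that of the splice forms present. On this scale Id4 was first in all 5 libraries, with a mean of 195 ± 42.4 (SD over the 5 libraries). It was followed by Id2 at 50.4 ± 17.3, Id3 at 19.9 ± 16.4, Tcf4 at 10.5 ± 6.87, Tcf12 at 6.16 ± 2.9, Tcf3 at 3.64 ± 1.44 and Id1 at 2.16 ± 1.16. Apart from Id4, neighbours in this order did not all keep their places. Tcf4 was above Id3 in home cage replicate 6, Id3 was above Id2 in home cage replicate 7, Tcf3 was above Tcf12 in fear conditioning replicate 3, and Id1 was above Tcf3 in home cage replicate 6.

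The summed level per kb of the 3 E proteins was 12.7, 13.8 and 12.6 in the fear conditioning libraries and 29.9 and 32.7 in the home cage libraries. That of the 4 Id factors was 210.3, 298 and 284 after fear conditioning and 258 and 285 in the home cage. The E protein sums do not overlap between the groups and the Id sums do. The ratio of the Id sum to the E protein sum, which does not depend on how a library was scaled, was 16.6, 21.6 and 22.5 after fear conditioning and 8.63 and 8.73 in the home cage. Tcf4 made up 44.9%, 41.5% and 40.8% of the E protein sum after fear conditioning and 61.1% and 54.5% in the home cage. Its ratio to Tcf12 per kb was 1.34, 1.54 and 1.22 after fear conditioning and 1.92 and 1.96 in the home cage, so Tcf4 was lower also relative to Tcf12. Id4 made up 70.7%, 85% and 74.8% of the Id sum after fear conditioning and 61.5% and 70.3% in the home cage. These ratios follow from the members' own values and carry no separate test.

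**Figure D2:**
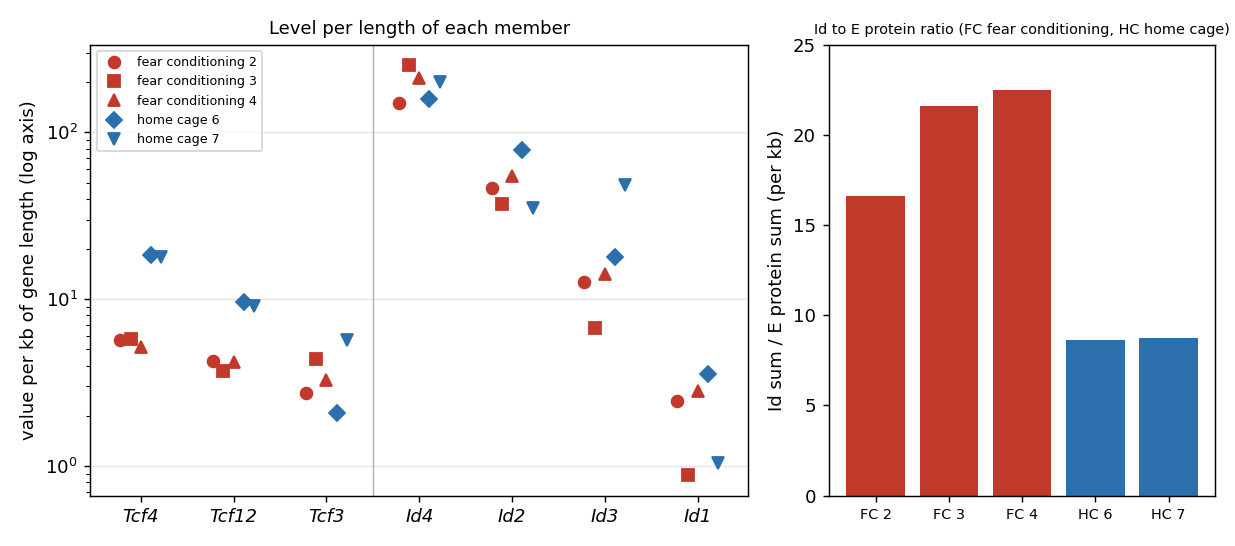
Left, value per kb of gene length (log axis) of each member in each library. Right, the summed Id level divided by the summed E protein level per library, with bars from 0 (FC, fear conditioning; HC, home cage): the 3 fear conditioning bars reach 16.6 to 22.5 and the 2 home cage bars 8.63 and 8.73.

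The genes around the E proteins and Id factors were described from 6 lists, of which 65 of 80 genes were in the table and 58 were tested. Over the 6 lists, limma called 0 of the 58, with 14 at an unadjusted p under 0.05, beside 2280 of all 13560 genes tested. With DESeq2, 11 of the 65 genes in the table passed, beside 8.94% of all genes in its fit. There were 17 without overlap between the groups (29.3%, against 36.4% of all genes tested), 8 of them higher after fear conditioning and 9 lower. The median log2 fold change was -0.10, against 0.08 over all genes tested. Since no gene passed the limma test, the values below are differences between libraries and not called changes.

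The bHLH partners, the tissue-restricted factors that pair with E proteins, were mostly scarce. Only 14 of 27 were in the table and 10 were tested, with 1 higher and 1 lower without overlap and a median log2 fold change of -0.25. The lower one was Neurod2, a proneural factor of glutamatergic neurons, at 7.11, 9.41 and 1.49 after fear conditioning and 20.0 and 33.0 in the home cage. Its log2 fold change was -2.17 (SE 0.76) with an adjusted p of 0.251 by limma. Neurod2 also stands in the list of pallial neuron markers below. Olig1, a factor of the oligodendrocyte lineage and the most abundant partner, was at 41.8, 22.8 and 53.6 after fear conditioning and 65.8 and 34.5 in the home cage. Its groups overlapped and its log2 fold change was -0.35 (SE 0.48), with an adjusted p of 0.732 by limma.

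Among 11 cofactors, which include co-repressors and co-activators that bind E proteins and the LMO and LDB bridging proteins of bHLH complexes, all were tested, 1 was higher and 1 lower without overlap, and the median was -0.03. Ldb1, the LIM domain binding protein that joins LMO proteins into such complexes, was at 124, 131 and 112 after fear conditioning and 68.1 and 71.0 in the home cage. All 3 fear conditioning values lay well above both home cage values, and the log2 fold change was 0.80 (SE 0.22) with an adjusted p of 0.207 by limma. Lmo1 was at 10.8, 5.83 and 5.51 after fear conditioning and at 11.9 and 39.1 in the home cage, a log2 fold change of -1.50 (SE 0.67, limma adjusted p = 0.325). The groups of Lmo1 were close to touching, and the difference came mostly from replicate 7. Lmo3, the most abundant cofactor, overlapped between the groups, at 244, 377 and 301 against 339 and 217.

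BMP signalling was described from 13 ligands and antagonists and 16 receptors, SMADs and SMAD regulators. Of the ligands and antagonists, 11 were tested, with 2 higher and 2 lower without overlap and a median of 0.54. Of the receptors and SMADs, 15 were tested, with 2 higher and 3 lower without overlap and a median of -0.06. The receptor-activated SMAD gene Smad5 was at 12.5, 14.4 and 14.4 after fear conditioning and 67.2 and 41.6 in the home cage. Its groups were far apart, with a log2 fold change of -1.87 (SE 0.39) and an adjusted p of 0.197 by limma. Acvr1, a BMP type I receptor, was at 17.7, 18.1 and 20.8 against 31.9 and 39.6 (log2 fold change -0.88, SE 0.35, limma adjusted p = 0.29). Smad4, the partner shared by all receptor-activated SMADs, lay the other way, at 91.4, 118 and 117 after fear conditioning and 46.0 and 39.4 in the home cage. It had the highest mean of its list and led in every fear conditioning library, but in neither home cage library. Its log2 fold change was 1.32 (SE 0.25) with an adjusted p of 0.197 by limma. Smad4 and Smad5 were thus separated in opposite directions.

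Markers of several other cell types differed between the groups in the same direction as Tcf4, Tcf12 and Id3. None of the marker genes was called by limma, whereas DESeq2 on the recovered reads passed 4 astrocyte, 3 oligodendrocyte, 2 oligodendrocyte precursor, 1 mural cell, 3 choroid plexus, 4 Drd2 neuron, 1 Drd1 neuron and 1 pallial neuron marker and 0 of the interneuron, microglia and endothelial lists, beside 8.94% of all genes in that fit. The counts without overlap that follow stand beside 16.1% of all genes tested that were lower and 20.2% that were higher. Of 10 astrocyte markers, 6 were lower after fear conditioning without overlap, and their summed value was 1091, 900.1 and 1135 in the fear conditioning libraries and 2358 and 2966 in the home cage libraries. The glutamate transporter gene Slc1a2, with the highest mean over the libraries, was at 377, 274 and 381 against 843 and 1905. Aldoc, another marker of this list, was above it in every fear conditioning library but in neither home cage library. Of 8 oligodendrocyte markers, 4 were lower without overlap, with sums of 1889, 1305 and 2765 against 2837 and 5524. For the oligodendrocyte precursors 3 of 4 were lower without overlap, with sums of 38.5, 24.9 and 31.7 against 87.3 and 104. Gpr17 had the highest mean of them but led only in home cage replicate 7, and Sox10 or Pdgfra led elsewhere. No marker of these 3 lists was listed at 0 in any library.

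Mural cell and choroid plexus markers were also lower in part, whereas 5 of the 7 endothelial markers tested overlapped between the groups. Of the 4 mural cell markers tested, 3 were lower without overlap (sums over the 5 listed of 37.0, 16.6 and 30.8 against 92.7 and 72.8). Rgs5 had the highest mean of them, but Vtn was above it in every fear conditioning library. Kcnj8, which marks pericytes, was at 0 in both home cage libraries and in fear conditioning replicate 3. Of the 7 endothelial markers tested, 6 had a negative log2 fold change and 1 a positive one, with a median of -0.81. Without overlap, 1 was higher and 1 lower. The sums over the 8 listed were 68.7, 31.3 and 61.3 against 89.7 and 64.9, with Egfl7 most abundant. The endothelial gene Tek, not tested because its mean was under 1, was at 2.47, 0.125 and 1.69 after fear conditioning and at 0 in both home cage libraries. Among 7 choroid plexus markers tested, 4 were lower without overlap, with sums over the 8 listed of 108, 183 and 116 against 2212 and 1897. The transthyretin gene Ttr, with the highest mean over the libraries, was at 0.522, 22.1 and 0.348 against 913 and 1320. Enpp2 was above it in every fear conditioning library and in home cage replicate 6, at 49.9, 72.4 and 53.7 against 1201 and 482. Otx2 and Aqp1 were at 0 in home cage replicate 7, Aqp1 also in fear conditioning replicates 3 and 4, and Folr1 and Kcnj13 in fear conditioning replicate 2.

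Neuronal markers went in part the other way. Of 7 Drd2 projection neuron markers, 6 were higher after fear conditioning without overlap and 0 lower, with a median log2 fold change of 1.15. Their summed value, most of it Penk, was 20829.9, 19165 and 20779.6 against 7651 and 12016. Of 6 Drd1 projection neuron markers 3 were higher without overlap, with sums of 228, 182 and 378 against 119 and 101. Tac1 had the highest mean of these, though Pdyn was level with it in home cage replicate 7. Of 8 pallial neuron markers, 2 were higher and 3 lower without overlap, with sums of 3744, 3708 and 4104 against 1798 and 3047 that are mostly Nrgn. Among 6 interneuron markers 1 was lower (sums 135, 82.2 and 94.7 against 182 and 131, with Sncg at 0 in home cage replicate 7). Cck had the highest mean of these, but Pvalb was above it in fear conditioning replicate 4. Among 8 microglia markers 2 were higher and 3 lower (sums 102, 61.4 and 112 against 143 and 131). Ctss had the highest mean of these, but P2ry12 was above it in fear conditioning replicate 3. The part of cell makeup in the values of Tcf4, Tcf12 and Id3 was not tested. The Drd2 list and Tcf4 differ between the same 3 and 2 libraries in opposite directions.

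**Figure D3:**
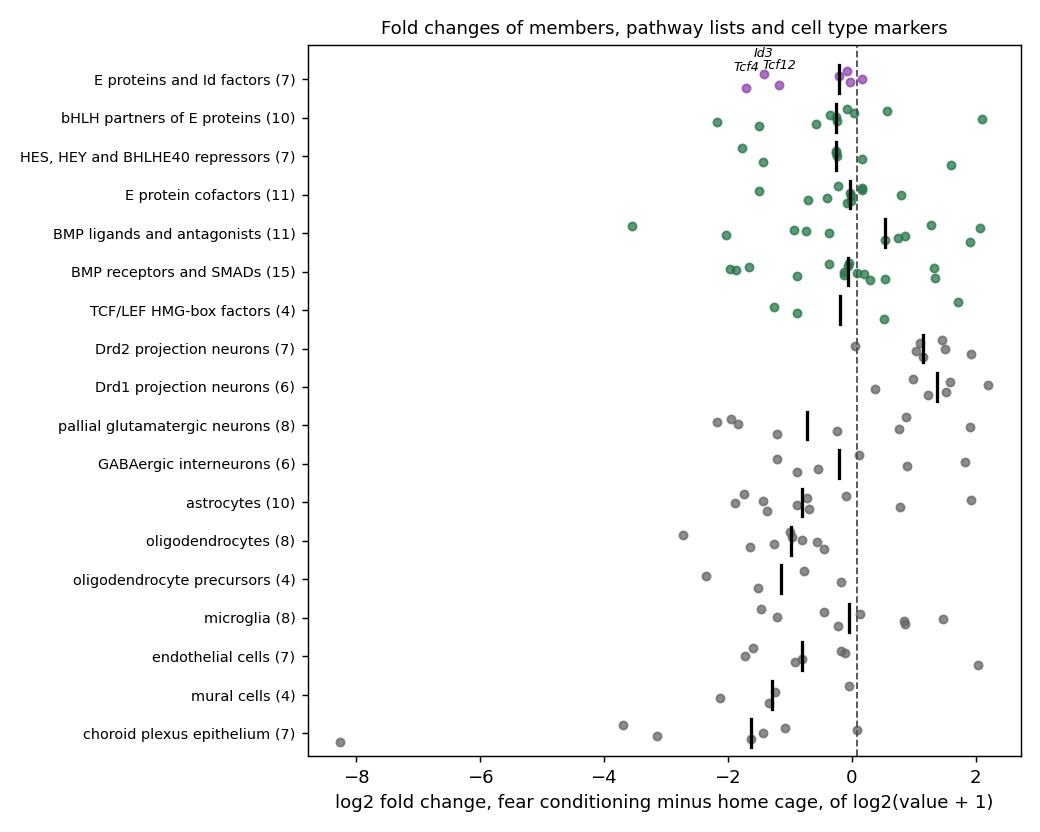
Log2 fold change (fear conditioning minus home cage, of log2(value + 1)) of the 7 members (purple), the tested genes of 6 pathway lists (green) and the tested genes of 11 marker lists (grey), with the number of genes in brackets. Black bars are list medians and the dashed line is the median of all genes tested, 0.08; Tcf4, Tcf12 and Id3 lie left of the line at -1.70, -1.17 and -1.42, and the median of the Drd2 markers lies right of it at 1.15.

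The genes whose profile over the 5 libraries was most like that of Tcf4 were found by the root mean square difference of log2(value + 1), centred on each gene's mean, over 9270 other genes whose mean was 10 or more. The nearest was Atp2b4, a plasma membrane calcium pump, at a difference of 0.099. Its values were 43.9, 42.6 and 35.8 after fear conditioning and 156 and 148 in the home cage. Next were Tet2, a methylcytosine dioxygenase, at 0.12 (12.9, 10.8 and 11 against 35.0 and 40.2), and Anks1, an ankyrin repeat adaptor, at 0.12 (7.73, 7.95 and 8.29 against 25.3 and 23.9). Syne2, a nuclear envelope protein gene, was at 0.13 (8.58, 8.66 and 8.09 against 28.1 and 23.1), and Usp42, a deubiquitinase gene, at 0.13 (13.9, 13.9 and 13.0 against 37.2 and 40.5). By the way they were chosen, all 5 share with Tcf4 low, even values after fear conditioning and a close, higher home cage pair. Tcf12 was at 0.28, with 91 genes nearer to Tcf4, and the median over the genes compared was 0.95. These differences describe 5 shared libraries and say nothing of shared function.

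**Figure D4:**
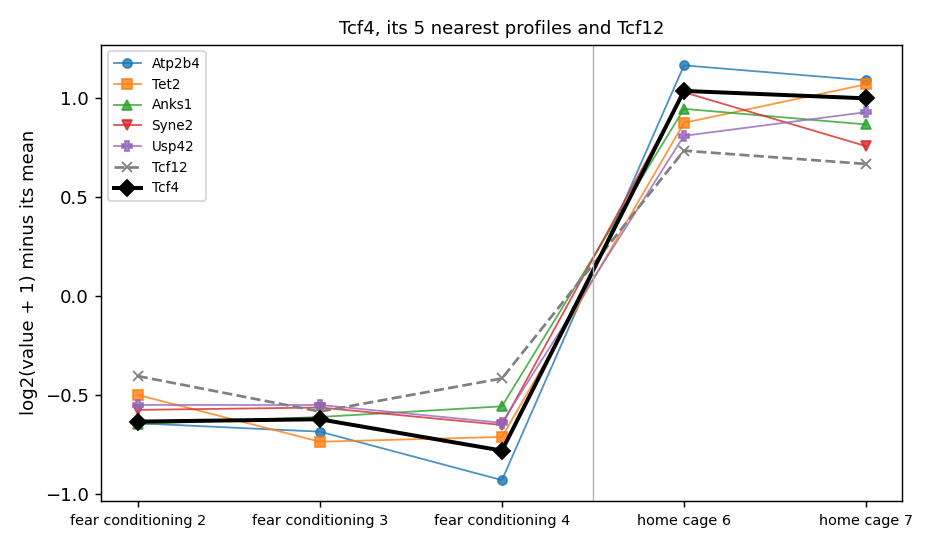
Log2(value + 1) minus the gene's mean over the 5 libraries for Tcf4 (black), the 5 genes nearest to it (colours) and Tcf12 (grey, dashed), by library. The nearest gene, Atp2b4, differs from Tcf4 by 0.099 (root mean square) and Tcf12 by 0.28; lines join libraries only to guide the eye.

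Some members share sequence on the genome with other genes, which matters because strand-specific counting is not stated. In RefSeq (GRCm38.p6), Id4 overlaps A330033J07Rik, which the table lists at 1.71, 2.29 and 2.28 after fear conditioning and at 3.64 and 2.0 in the home cage. Its values are far below those of Id4. Tcf4 overlaps Gm31439, and Tcf12 overlaps Gm18821 and Rpl15-ps2. Tcf3, Id1, Id2 and Id3 overlap 0 genes in that annotation. Splice forms of Tcf4 and Tcf12, which have several starts, are summed in 1 value per gene.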

How the data were processed

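Ribosome-bound RNA was sequenced from 5 libraries, each a separate pool of 3 animals, so p-values measure only the spread between these pools. The authors deposited a normalized signal per gene and library, in CPM of an effective library size, beside a gene length. Libraries were made with SMARTer HV and NexteraXT kits per the labels. The study's methods name Tuxedo DESeq software, and the submitters' processing notes name DESeq and the build mm8; the aligner, the annotation and any use of strand in counting are not given in the sources used here. All values (100%) were whole multiples of 1 read within 0.01, and these reads served DESeq2 1.42.0, edgeR 4.0.16 and limma voom as alternatives. Every column was mapped to a sample.

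The members, lists and tests were chosen with earlier results of these data known. The main fit was limma 3.58.1 (lmFit and trended eBayes) on values log2-transformed after adding 1, over genes whose mean was 1 or more. The test was two-sided, Benjamini-Hochberg adjusted, and called genes at an adjusted p under 0.05 with a log2 fold change beyond 0.5 in either direction. A fold change on this scale understates that of low genes. Groups did not overlap where every library of one lay above every library of the other. The most abundant gene of a list was that with the highest mean over the 5 libraries. The genes named are the members, pathway genes whose mean was 10 or more and whose groups did not overlap, the most abundant gene of each pathway list, and the 5 profiles nearest to Tcf4; some genes under this rule are not reported here. Identifiers joined the genes because 43 names were repeated, and 9 lengths not above 0 went unused. Alternatives were a pseudocount of 0.1, no filter or a minimum of 1 in each library, quantile or upper quartile normalization, an adjusted p of 0.1, no fold cutoff, and each library left out. The fits were tested on simulated data drawn with the same spread in both groups, unlike the real groups. Fits ran in R 4.3.3, and summaries and figures in Python 3.11.15 (pandas 2.3.3, numpy 2.4.6, matplotlib 3.10.9).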

Additional observations from a re-analysis of the deposited data

How the results depend on the processing

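Of 163 alternative values, 144 stayed within the spread between libraries or within 1.5 times the count given, and 19 moved. No paired analysis was possible because the groups share no replicate numbers. Over all genes, the count called was 0 to 8025 with 1 library left out (8025 without home cage replicate 6, 3722 without home cage replicate 7 and 1 without fear conditioning replicate 3), 1115 with the edgeR likelihood ratio test and 1296 with DESeq2. For the pathway genes it was 0 to 38 with 1 library left out (38 without home cage replicate 6 and 17 without replicate 7), 6 with the likelihood ratio test and 11 with DESeq2. With 1 home cage library left, that library is assumed to vary like the fear conditioning group. Over the alternatives run, Tcf4 (-1.74 to -1.62), Tcf12 (-1.24 to -1.08) and Id3 (-2.12 to -0.71) stayed lower after fear conditioning, whereas Tcf3, Id1, Id2 and Id4 (-0.01 to 0.38) each changed sign under at least 1. The log2 fold change of Tcf4 was -1.62 with upper quartile scaling, and that of Tcf12 was -1.08 with quantile normalization. With 1 library left out, that of Tcf3 ranged from -0.72 to 0.66 and that of Id2 from -0.77 to 0.36. Without division by length, Tcf4 took place 2 (from 4), Id2 place 3 (from 2) and Id3 place 4 (from 3). The number of members lower without overlap was 3 to 5 with 1 library left out, an alternative chosen after seeing the data. The median log2 fold change of all genes, 0.08, was 0.16 with a pseudocount of 0.1 or upper quartile scaling, 0.03 with quantile normalization, -0.04 with edgeR, -0.07 with DESeq2, 0.25 with voom, 0.19 without home cage replicate 6 and -0.04 without replicate 7. The causes were not tested. Depth limits the values near the floor of 3 reads, and the number and spread of the 2 home cage libraries limit the fold changes.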

Other observations

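Other bHLH repressors were described from a list of HES, HEY and BHLHE40 genes, of which 8 of 9 were in the table and 7 were tested. Of these, 1 was higher and 2 were lower after fear conditioning without overlap between the groups, the median log2 fold change was -0.25, and limma called 0 while DESeq2 called 3. Over all genes tested, 20.2% were higher and 16.1% lower without overlap, and DESeq2 called 8.94%. Hes5, a Notch target, was at 18.9, 12.2 and 11.3 after fear conditioning and at 37.6 and 40.7 in the home cage, a log2 fold change of -1.44 (SE 0.41, limma adjusted p = 0.217). Bhlhe41, a repressor of the circadian clock that also binds E-boxes, was at 18.3, 18.2 and 22.0 against 35.5 and 132 (log2 fold change -1.77, SE 0.57, limma adjusted p = 0.233). Hey1, with the highest mean of the list, overlapped between the groups at 89.8, 102 and 109 against 74.9 and 186. Bhlhe40 was above it in fear conditioning replicate 3 and home cage replicate 6. Hes1, chosen after its values were seen, was the higher one, at 3.65, 3.75 and 4.37 against 0.601 and 0.633.

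The 4 HMG-box factors of the Wnt pathway, whose names resemble those of the E proteins, were all tested, with 1 higher and 0 lower without overlap, a median log2 fold change of -0.18, 0 called by limma and 1 by DESeq2. Tcf7 had the highest mean, at 22.3, 36.4 and 29.1 after fear conditioning and 23.8 and 16.2 in the home cage. In home cage replicate 7, Tcf7l2 and Tcf7l1 were above it. Tcf7l2, chosen after its values were seen, was at 2.99, 5.41 and 8.14 against 2.97 and 54.0, so that the high home cage value came from replicate 7 alone. Lef1, also chosen after its values were seen, was at 3.03, 0.958 and 3.48 after fear conditioning and at 0 in both home cage libraries. The BMP antagonist Sostdc1, chosen in the same way, was at 1.23, 0.375 and 0.298 against 9.58 and 31.2, with a limma adjusted p of 0.197.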
